A study of Mus musculus with 21 samples.

Results

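Interferon-stimulated genes were followed in the healing apex of the neonatal mouse heart under 6 drugs. The set was 38 genes named by symbol, and 37 had a value among the 18762 genes measured. It was chosen with earlier results of these data known, so counts set against all genes are not independent of that choice. Mx2 was not analysed here. Of the 37, 29 were antiviral genes of the type I interferon response and 8 were GTPases induced by interferon gamma. RNA came from heart apex of ICR mice that had the tip of the ventricle removed (apical resection) at 1 day of age and were sampled on postnatal day 7. The drug groups were injected under the skin on 7 consecutive days with isoproterenol, a beta-adrenergic agonist, or with amiodarone, a blocker of several cardiac channels. Others received the beta-blockers metoprolol or propranolol, the sodium channel blocker lidocaine, or ivabradine, which blocks the pacemaker current. The control group is labelled with apical resection as its only treatment, and its libraries are titled NS, which the labels do not explain. What the controls were injected with, if anything, and all doses are not stated, and no group without resection was included. Each of the 7 groups held 3 libraries, 21 in all, and the labels do not say that they came from separate animals, so every p-value measures only the spread between libraries.

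Interferons are secreted signals of infection and tissue damage. Type I interferons bind a receptor made of Ifnar1 and Ifnar2, and the Janus kinases there activate Stat2, which with Irf9 is part of the factor ISGF3 that binds the interferon-stimulated response element (ISRE) of antiviral genes. Interferon gamma binds Ifngr1 and Ifngr2 and acts at the gamma-activated site (GAS), with Irf1 as a second wave, and induces the immunity-related and guanylate-binding GTPases that attack the vacuoles of intracellular microbes. Macrophages and other leukocytes of a wounded heart carry this programme, and cardiomyocytes, endothelium and fibroblasts can also respond.

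Promoters show which of these elements the members hold, and 4 are printed because they stand for the 3 arrangements of matches (ISRE alone, GAS alone and both). RefSeq windows on GRCm38.p6, running from 250 bases before to 50 bases after the start of transcription, were found for 29 of the 37 members. Capitals mark matches to the ISRE letters GAAANNGAAA or to the GAS letters TTCNNNGAA on either strand. The first window belongs to the GTPase Igtp (chr11:58199306-58199605, plus strand), with a GAS match just before an ISRE match. The second is that of Isg15 (chr4:156200769-156201068, minus strand), with 3 overlapping ISRE matches, and the third that of Rsad2 (chr12:26456403-26456702, minus strand), with 1. The last is a window of Irf1 (chr11:53769764-53770063, plus strand), with a GAS match alone. Another Irf1 window (chr11:53770223-53770522, plus strand) held no match and is not printed.
Igtp: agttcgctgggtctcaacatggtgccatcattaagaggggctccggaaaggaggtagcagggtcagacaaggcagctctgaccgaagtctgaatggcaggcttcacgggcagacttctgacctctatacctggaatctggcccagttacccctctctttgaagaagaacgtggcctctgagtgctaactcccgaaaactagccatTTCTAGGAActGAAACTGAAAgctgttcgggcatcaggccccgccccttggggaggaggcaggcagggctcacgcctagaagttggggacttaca
Isg15: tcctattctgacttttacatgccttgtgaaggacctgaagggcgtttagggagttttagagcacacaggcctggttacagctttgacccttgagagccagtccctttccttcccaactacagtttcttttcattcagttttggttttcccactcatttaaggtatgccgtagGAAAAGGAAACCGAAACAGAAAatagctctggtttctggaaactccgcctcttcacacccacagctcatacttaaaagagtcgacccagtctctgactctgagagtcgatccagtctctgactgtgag
Rsad2: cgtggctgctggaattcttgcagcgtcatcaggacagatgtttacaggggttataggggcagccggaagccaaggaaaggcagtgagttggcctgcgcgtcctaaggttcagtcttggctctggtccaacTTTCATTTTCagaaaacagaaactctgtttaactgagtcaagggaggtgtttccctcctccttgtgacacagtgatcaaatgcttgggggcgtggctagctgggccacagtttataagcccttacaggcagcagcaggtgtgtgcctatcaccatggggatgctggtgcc
Irf1: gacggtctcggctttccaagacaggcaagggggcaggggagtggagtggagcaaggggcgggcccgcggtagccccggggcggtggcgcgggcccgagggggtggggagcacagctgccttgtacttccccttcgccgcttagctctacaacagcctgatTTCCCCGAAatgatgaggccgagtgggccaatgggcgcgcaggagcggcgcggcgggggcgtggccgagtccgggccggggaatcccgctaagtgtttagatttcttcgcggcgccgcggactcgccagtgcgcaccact

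An ISRE match was present in 17 of the 29 members with a window, against 3.99% of 27025 genes. All 7 GTPases with a window held one, and so did 10 of 22 type I members. A GAS match was present in 10 of 29 members, 4 of them GTPases, against 9.55% of all genes. Matches of both kinds stood in 7 members and overlapped in 2, and 9 members held neither. The letters describe these windows only.

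The deposited values were FPKM, fragments per length of transcript and total mapped, without counts, so the absolute depth and the counting error are unknown. FPKM summed to 496304 to 552905 per library, and 16348 to 16746 genes were above 0. The label of heart apex matched the cardiomyocyte genes, with Myl2 at 12341 to 15723 FPKM. Of 4 transcripts of other tissues checked, the highest values were those of Sftpc of lung at 222 FPKM in amiodarone 2, Alb of liver at 10.8 FPKM in propranolol 1, Myl7 of atrium at 176 FPKM in isoproterenol 3 and Mylpf of skeletal muscle at 62.7 FPKM in control 3, and these 4 libraries were left out together in 1 fit. Amiodarone 3 stayed in that fit although it held the next highest Mylpf, 30.4 FPKM, and so did lidocaine 1, with 9.1 FPKM of Sftpc. For the members the libraries that stood apart from their groups were control 1, lidocaine 3 and amiodarone 3, and counts of members called are given with and without them.

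Compared with resection alone, most members were lower with 5 of the drugs and few with amiodarone. A gene was called at an adjusted p under 0.05 in a linear model of log2(FPKM + 1) fitted to the 12433 genes that reached 1 FPKM in 3 or more libraries, which all 37 members met. With isoproterenol 31 of 37 members fell, where 25.8% of all genes tested fell. With metoprolol 26 members fell (22% of all genes), with propranolol 30 (19.8%), with lidocaine 28 (26.6%) and with ivabradine 31 (19.1%). With amiodarone 3 members fell, Irf1, Ifitm3 and Gbp2, where 20.6% of all genes fell. No member rose with any drug, where 8.38% of all genes rose with isoproterenol, 8.47% with amiodarone, 9.48% with metoprolol, 6.98% with propranolol, 10.6% with lidocaine and 7.91% with ivabradine. Without control 1 the members called lower were 17, 2, 12, 23, 14 and 20 with isoproterenol, amiodarone, metoprolol, propranolol, lidocaine and ivabradine. The only log2 changes above 0 were those of Dhx58 (0.04, adjusted p = 0.829) and Rtp4 (0.02, adjusted p = 0.94) with amiodarone. The median log2 fold change of the 37 members was -0.61 with isoproterenol, -0.21 with amiodarone, -0.58 with metoprolol, -0.73 with propranolol, -0.61 with lidocaine and -0.67 with ivabradine. Over all genes tested it lay between -0.095 and -0.075. The 6 comparisons share their 3 control libraries, so their counts are not independent. What the controls were injected with, if anything, is not stated, so the drug and the injection itself cannot be told apart. In bulk RNA fewer cells of a type and less RNA per cell cannot be told apart, and macrophage markers were lower too, 10 of 12 with isoproterenol, 4 with amiodarone and 8 or 9 with each other drug. Their part in the member changes was not tested. Across the 7 groups 26 of 37 members differed (limma F test), where 39.9% of all genes did.

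**Figure D1:**
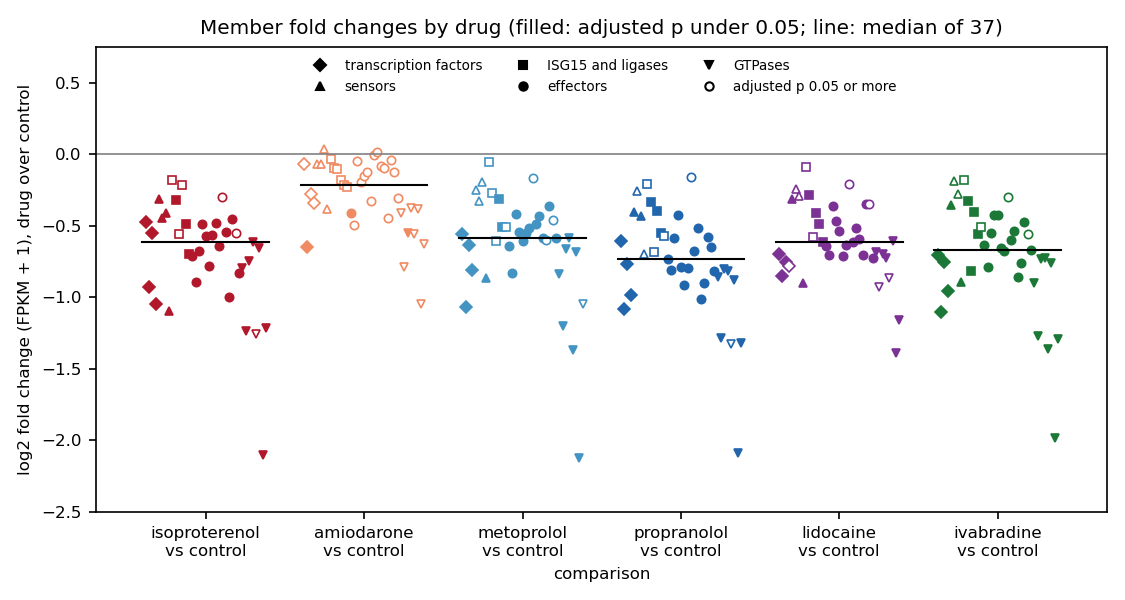
Log2 fold change on the FPKM + 1 scale (vertical axis) of each of 37 members in each drug group over control; symbols mark the role, filled symbols an adjusted p under 0.05 and the line the median. Amiodarone has 3 filled symbols and a median of -0.21, and the other drugs have 26 to 31 filled symbols and medians of -0.73 to -0.58.

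By role, 4 of 4 sensors and 4 of 4 transcription factors were lower with isoproterenol than in control. So were 3 of 6 genes of the ISG15 and ligase group, 13 of 15 effectors and 7 of 8 GTPases. Of the 29 type I members 24 fell with isoproterenol, 2 with amiodarone, 19 with metoprolol, 23 with propranolol, 22 with lidocaine and 23 with ivabradine. Of the 8 GTPases 7 fell with isoproterenol, 1 with amiodarone, 7 with metoprolol, 7 with propranolol, 6 with lidocaine and 8 with ivabradine. The scale of the libraries matters to the background: median-of-ratios rescaling divided the controls by 1.05 to 1.06 and the drug libraries by 0.969 to 1.01, and the share of calls that were higher in a drug ran from 24.5% to 30.2% as deposited and from 52.8% to 58.4% after it. Rescaled, 27 members were lower with isoproterenol, 2 with amiodarone, 19 with metoprolol, 27 with propranolol, 23 with lidocaine and 27 with ivabradine, and no member was higher. Of all genes 13.8%, 9.66%, 11.2%, 10.2%, 14.9% and 11% were then lower in the same order of drugs.

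Read as separate libraries, most members lay below the controls with 4 of the drugs. All 3 drug libraries lay below all 3 controls in 33 members with isoproterenol (32.8% of all genes), 34 with metoprolol (31.8%), 33 with propranolol (31.2%) and 36 with ivabradine (25.8%). With amiodarone this held for 4 members (30.6% of all genes) and with lidocaine for 13 (33.3%). For no member were all 3 libraries of a drug above all 3 controls, which held for 10.1% (ivabradine) to 15.2% (lidocaine) of all genes. Lidocaine 1 and 2 alone lay below all 3 controls in 37 of 37 members, where 39.8% of all genes did. All 18 drug libraries were below all 3 controls for 4 members, Irf1, Rsad2, Dtx3l and Parp14, and for 9.5% of all genes.

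**Figure D2:**
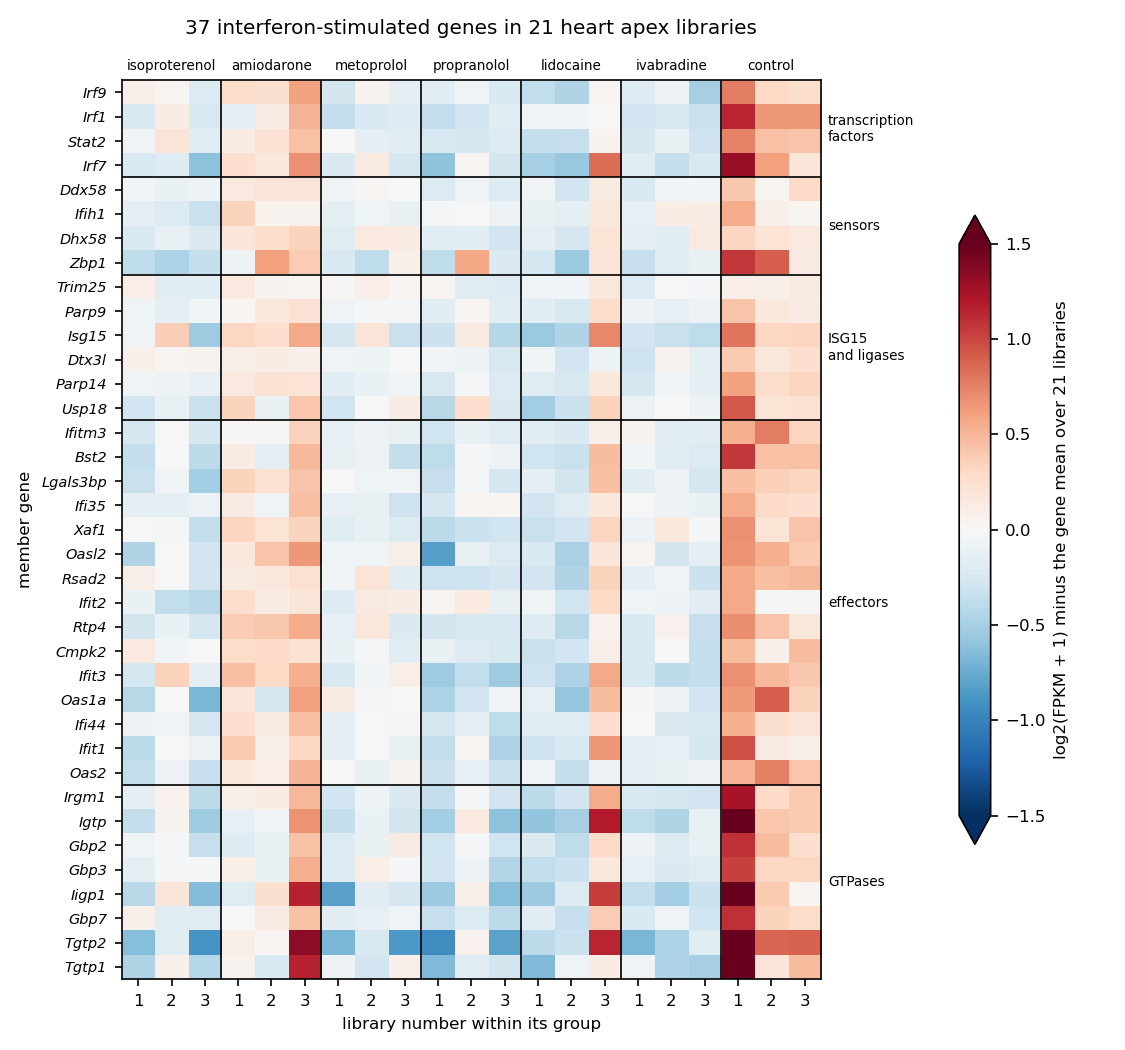
Each row is a member, ordered by role and mean level, and each column a library; colour gives log2(FPKM + 1) minus the gene mean over 21 libraries, limited to 1.5 either way. Control 1 is the reddest column, lidocaine 3 and amiodarone 3 are redder than the other 2 libraries of their groups, and most columns of isoproterenol, metoprolol, propranolol and ivabradine are pale or blue.

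The transcription factors of the response were led by Irf1, the interferon gamma-induced activator. Irf1 stood at 8.68, 11.3 and 8.71 FPKM with isoproterenol, 9.23, 11.4 and 15.2 FPKM with amiodarone and 7.89, 8.66 and 8.95 FPKM with metoprolol. Levels of Irf1 were 7.82, 8.32 and 9.09 FPKM with propranolol, 9.88, 10.01 and 10.3 FPKM with lidocaine and 8.33, 8.58 and 7.98 FPKM with ivabradine, against 23.98, 16.9 and 16.8 FPKM in the controls. Every control was above every drug library, and amiodarone 3 was the highest of the drug libraries. Irf1 fell in all 6 comparisons, by 0.65 with amiodarone (adjusted p = 0.00317) to 1.10 with ivabradine (adjusted p = 4.91e-05) on the log2 scale, each with an SE of 0.14. It had the smallest p of the members across the 7 groups (limma F test, adjusted p = 0.000154).

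Stat2, the subunit of ISGF3 that activates transcription, was next. Stat2 stood at 5.53, 6.76 and 4.99 FPKM with isoproterenol, 6.31, 6.87 and 8.22 FPKM with amiodarone and 5.81, 5.17 and 5.06 FPKM with metoprolol. Levels of Stat2 were 4.74, 4.7 and 4.91 FPKM with propranolol, 4.29, 4.34 and 6.03 FPKM with lidocaine and 4.68, 5.35 and 4.49 FPKM with ivabradine, against 10.3, 8.19 and 8.1 FPKM in the controls. The controls lay above the libraries of 5 drugs, and amiodarone 3 reached the range of the controls. Stat2 fell by 0.55 with isoproterenol to 0.76 with propranolol (SE 0.12, adjusted p 0.00019 to 0.00214 over the 5 drugs), and its log2 change with amiodarone was -0.28 (adjusted p = 0.0835).

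Irf9 is the DNA-binding subunit of ISGF3. Irf9 stood at 11.7, 11.4 and 9.45 FPKM with isoproterenol, 13.6, 13.3 and 17.3 FPKM with amiodarone and 8.97, 11.6 and 10.02 FPKM with metoprolol. Levels of Irf9 were 9.69, 10.5 and 9.27 FPKM with propranolol, 8.37, 7.85 and 11.5 FPKM with lidocaine and 9.55, 10.4 and 7.55 FPKM with ivabradine, against 19.6, 13.8 and 13.5 FPKM in the controls. Amiodarone libraries overlapped the controls, and the other drug libraries lay below them. Irf9 fell by 0.47 with isoproterenol to 0.70 with lidocaine or ivabradine (SE 0.15, adjusted p 0.00193 to 0.0208 over 5 drugs), and its log2 change with amiodarone was -0.07 (adjusted p = 0.74). Without control 1 Irf9 was called in 3 of the 6 comparisons.

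Irf7 drives the amplification of interferon production. Irf7 stood at 4.2, 4.32 and 2.98 FPKM with isoproterenol, 6.22, 5.76 and 8.75 FPKM with amiodarone and 4.25, 5.66 and 4.12 FPKM with metoprolol. Levels of Irf7 were 3.01, 5.23 and 4.03 FPKM with propranolol, 3.29, 3.1 and 9.87 FPKM with lidocaine and 4.36, 3.74 and 4.2 FPKM with ivabradine, against 14.02, 8.33 and 5.9 FPKM in the controls. Lidocaine 3 and amiodarone 3 stood above control 2, and control 1 was the highest library. Irf7 fell with isoproterenol (log2 -1.04, SE 0.30, adjusted p = 0.0128), metoprolol, propranolol and ivabradine, and had an adjusted p of 0.401 with amiodarone and 0.0501 with lidocaine. Without control 1 the smallest of its 6 adjusted p was 0.0702, and its log2 change with isoproterenol was -0.74.

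Sensors of foreign RNA and DNA were measured at low levels. Ddx58 stood at 4.11, 3.89 and 3.98 FPKM with isoproterenol, 4.8, 5 and 5 FPKM with amiodarone and 4.05, 4.4 and 4.23 FPKM with metoprolol. Levels of Ddx58 were 3.55, 4 and 3.54 FPKM with propranolol, 4.04, 3.3 and 4.74 FPKM with lidocaine and 3.49, 4.05 and 4.08 FPKM with ivabradine, against 5.93, 4.42 and 5.39 FPKM in the controls. Ddx58 encodes the RNA helicase RIG-I, and its amiodarone libraries lay inside the range of the controls. It fell with isoproterenol, propranolol, lidocaine and ivabradine, by 0.32 to 0.41 on the log2 scale (SE 0.09, adjusted p 0.00514 to 0.0153). Ifih1 stood at 1.42, 1.31 and 1.12 FPKM with isoproterenol, 2.38, 1.77 and 1.78 FPKM with amiodarone and 1.41, 1.56 and 1.48 FPKM with metoprolol. Levels of Ifih1 were 1.63, 1.67 and 1.51 FPKM with propranolol, 1.47, 1.43 and 2.01 FPKM with lidocaine and 1.45, 1.88 and 1.88 FPKM with ivabradine, against 2.92, 1.81 and 1.73 FPKM in the controls. Ifih1 encodes the helicase MDA5, and control 1 stood above the other libraries. Ifih1 fell with isoproterenol alone among the 6 comparisons (log2 -0.45, SE 0.12, adjusted p = 0.0102), and without control 1 that change was -0.28 (adjusted p = 0.0612). Dhx58, which encodes the regulator LGP2, ran from 0.60 to 1.48 FPKM and fell with isoproterenol and propranolol. Zbp1, a sensor of left-handed nucleic acid, ran from 0.08 to 2.30 FPKM and fell with isoproterenol, metoprolol, lidocaine and ivabradine. Without control 1 Ddx58 and Zbp1 were each called in 1 of the 6 comparisons, and Dhx58 in 2.

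In the group of Isg15, a ubiquitin-like modifier, and of ligases and ADP-ribosyl transferases, Parp14 had the smallest p across the groups (adjusted p = 0.00158). Parp14 stood at 2.86, 2.83 and 2.69 FPKM with isoproterenol, 3.44, 3.67 and 3.64 FPKM with amiodarone and 2.58, 2.75 and 2.89 FPKM with metoprolol. Levels of Parp14 were 2.42, 2.95 and 2.5 FPKM with propranolol, 2.56, 2.42 and 3.48 FPKM with lidocaine and 2.34, 2.88 and 2.63 FPKM with ivabradine, against 5.12, 3.85 and 4.04 FPKM in the controls. Its 18 drug libraries were below the 3 controls, and amiodarone was the highest of the drug groups. Parp14 fell with the 5 other drugs by 0.49 to 0.56 (SE 0.10, adjusted p 0.000796 to 0.00177), and its log2 change with amiodarone was -0.21 (adjusted p = 0.114).

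Trim25, the ubiquitin ligase that activates RIG-I, hardly varied. Trim25 stood at 13.9, 11.4 and 11.3 FPKM with isoproterenol, 14.3, 13.4 and 13.1 FPKM with amiodarone and 13.04, 13.9 and 13.2 FPKM with metoprolol. Levels of Trim25 were 13.3, 11.4 and 11.2 FPKM with propranolol, 12.2, 12.4 and 14.7 FPKM with lidocaine and 11.02, 12.8 and 12.6 FPKM with ivabradine, against 13.8, 13.7 and 14.3 FPKM in the controls. The propranolol and ivabradine libraries lay below the controls and those of the other 4 drugs overlapped them. The log2 change lay between -0.21 and -0.03 (smallest adjusted p 0.068). Parp9 stood at 7.02, 6.59 and 7.17 FPKM with isoproterenol, 7.59, 8.38 and 8.8 FPKM with amiodarone and 7.08, 7.25 and 7.31 FPKM with metoprolol. Levels of Parp9 were 6.49, 7.62 and 6.51 FPKM with propranolol, 6.45, 6.1 and 9.07 FPKM with lidocaine and 7, 6.7 and 6.94 FPKM with ivabradine, against 10.3, 8.36 and 8.13 FPKM in the controls. Parp9, the partner of the ligase Dtx3l, was highest in control 1 and next highest in lidocaine 3. Parp9 fell with isoproterenol, propranolol, lidocaine and ivabradine by 0.29 to 0.33 (SE 0.10, adjusted p 0.0245 to 0.0388), and with none of the 6 drugs without control 1.

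Isg15 ranged widely within groups, from 3.94 to 8.17 FPKM with isoproterenol and from 3.83 to 10.7 FPKM with lidocaine, against 7.85 to 11.5 FPKM in controls. It fell with ivabradine only (log2 -0.82, SE 0.27, adjusted p = 0.0314), where the 3 libraries stood at 4.45 to 4.82 FPKM, and without control 1 that change was -0.65 (adjusted p = 0.108). Usp18, the protease that removes Isg15 and damps the receptor, fell with isoproterenol and lidocaine. Without control 1 the log2 change of Usp18 was -0.46 with isoproterenol (adjusted p = 0.117) and -0.38 with lidocaine (adjusted p = 0.188). Dtx3l fell with metoprolol, propranolol, lidocaine and ivabradine by 0.32 to 0.41.

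Among the effectors Ifitm3, a membrane protein that blocks virus entry, was the most abundant member. Ifitm3 stood at 114, 138 and 115 FPKM with isoproterenol, 139, 139 and 175 FPKM with amiodarone and 126, 129 and 127 FPKM with metoprolol. Levels of Ifitm3 were 111, 129 and 121 FPKM with propranolol, 122, 118 and 145 FPKM with lidocaine and 143, 123 and 122 FPKM with ivabradine, against 198, 234 and 172 FPKM in the controls. The controls lay above the drug libraries but for amiodarone 3, which passed control 3. Ifitm3 fell in all 6 comparisons, by 0.41 with amiodarone (adjusted p = 0.0122) to 0.73 with propranolol (adjusted p = 0.000287), with an SE of 0.11. Control 2 and not control 1 was its highest library.

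Oas2 makes the oligoadenylates that switch on RNase L. Oas2 stood at 0.3, 0.58 and 0.32 FPKM with isoproterenol, 0.88, 0.8 and 1.4 FPKM with amiodarone and 0.68, 0.56 and 0.74 FPKM with metoprolol. Levels of Oas2 were 0.34, 0.55 and 0.35 FPKM with propranolol, 0.62, 0.31 and 0.59 FPKM with lidocaine and 0.52, 0.56 and 0.6 FPKM with ivabradine, against 1.41, 1.84 and 1.24 FPKM in the controls. Each library of the 5 drugs other than amiodarone was below each control, and amiodarone 3 lay within the controls. Oas2 fell by 0.58 with metoprolol to 0.83 with isoproterenol (SE 0.12, adjusted p 0.000118 to 0.00279), and its log2 change with amiodarone was -0.31 (adjusted p = 0.0712). At these low levels the added 1 FPKM understates the fold change.

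Rtp4, a chaperone of membrane receptors that is induced by interferon, had the smallest p among the 6 drug groups. Rtp4 stood at 3.41, 3.99 and 3.46 FPKM with isoproterenol, 5.94, 6.06 and 6.88 FPKM with amiodarone and 3.89, 5.02 and 3.59 FPKM with metoprolol. Levels of Rtp4 were 3.42, 3.54 and 3.52 FPKM with propranolol, 3.69, 2.99 and 4.59 FPKM with lidocaine and 3.56, 4.58 and 3.19 FPKM with ivabradine, against 7.66, 6.17 and 5.01 FPKM in the controls. The 3 amiodarone libraries overlapped the controls and were above the other 15 drug libraries. Rtp4 fell with the 5 other drugs by 0.49 to 0.68 (SE 0.14, adjusted p 0.00195 to 0.0133), and its log2 change with amiodarone was 0.02 (adjusted p = 0.94).

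Xaf1 stood at 6.53, 6.42 and 4.89 FPKM with isoproterenol, 8.51, 7.77 and 8.57 FPKM with amiodarone and 5.67, 6.01 and 5.59 FPKM with metoprolol. Levels of Xaf1 were 4.75, 5 and 5.15 FPKM with propranolol, 5.03, 5.22 and 8.49 FPKM with lidocaine and 6.11, 7.49 and 6.47 FPKM with ivabradine, against 11.2, 7.72 and 9.2 FPKM in the controls. Xaf1, a promoter of cell death induced by interferon, overlapped between amiodarone and control. It fell with the 5 other drugs by 0.42 to 0.79 (SE 0.14, adjusted p 0.00104 to 0.0345). Bst2 stood at 23.3, 30.2 and 22.7 FPKM with isoproterenol, 32.6, 27.1 and 42.5 FPKM with amiodarone and 27.8, 28.2 and 23.3 FPKM with metoprolol. Levels of Bst2 were 22.8, 29.4 and 28.6 FPKM with propranolol, 24.2, 23.6 and 41.8 FPKM with lidocaine and 29.2, 26.6 and 25.96 FPKM with ivabradine, against 63.7, 41.1 and 41.3 FPKM in the controls. Bst2, or tetherin, holds budding virus at the cell surface, and its highest drug libraries were amiodarone 3 and lidocaine 3. It fell with the 5 other drugs by 0.71 to 0.89 (SE 0.20, adjusted p 0.00279 to 0.0112).

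**Figure D3:**
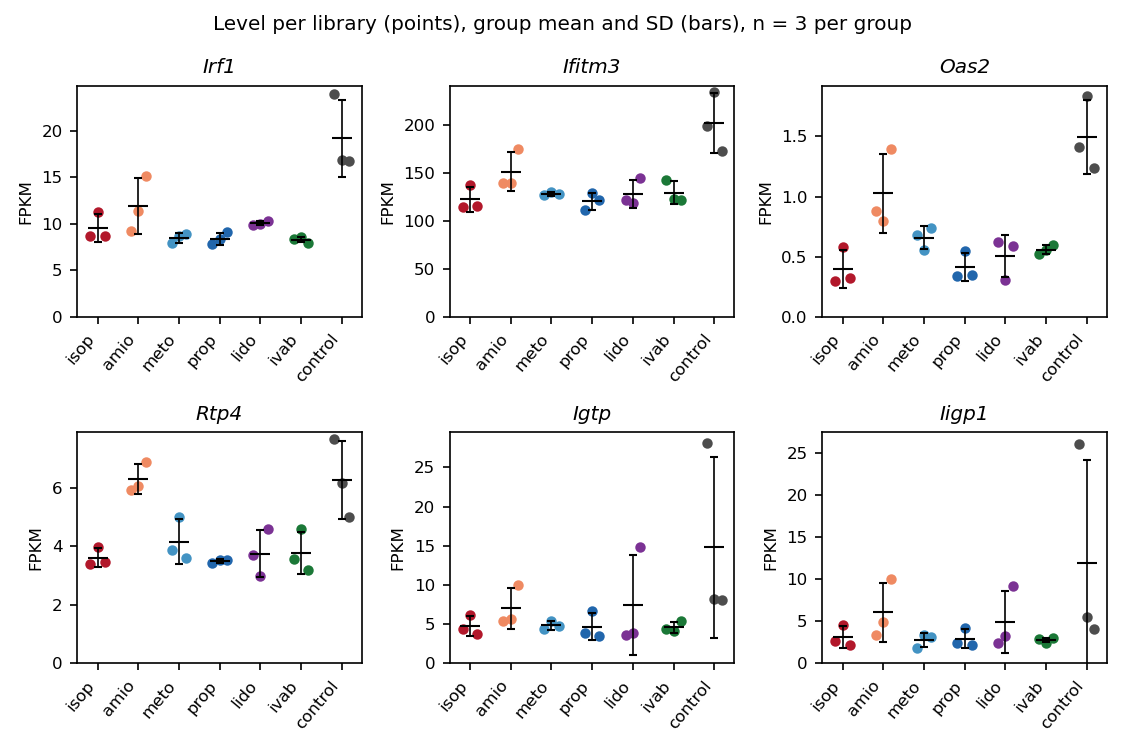
FPKM of 6 members per library (points) with the group mean and SD (bars, n = 3), the 6 drugs left of control. For Irf1 every control is above every drug library, for Rtp4 amiodarone sits with the controls, and for Igtp and Iigp1 control 1 is far above the other 2 controls.

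The 10 remaining effectors lay between 0.25 FPKM (Ifit1) and 34.4 FPKM (Lgals3bp). Rsad2, or viperin, fell with the 5 drugs other than amiodarone, by 0.51 to 0.80 (SE 0.15). Oasl2, Ifi35, Ifi44, Ifit3 and Lgals3bp also fell with each of these 5, Oas1a with 4 and Cmpk2 with 4. Without control 1 Ifi44 and Ifit3 were each called in 2 comparisons, Ifi35, Lgals3bp and Oas1a in 3, and Oasl2 and Cmpk2 in 4. Ifit2 fell with isoproterenol alone and Ifit1 with propranolol alone, and neither was called without control 1. Reads of Oas1a and of Ifit3 may be shared with the near-identical Oas1g and Ifit3b, whose longest coding transcripts in GENCODE match at 97.5% and 98% of aligned bases, so these values are uncertain.

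The gamma-induced GTPases were far higher in control 1 than in the other controls. Igtp is an immunity-related GTPase of this group. Igtp stood at 4.4, 6.17 and 3.77 FPKM with isoproterenol, 5.37, 5.7 and 10.01 FPKM with amiodarone and 4.4, 5.44 and 4.71 FPKM with metoprolol. Levels of Igtp were 3.87, 6.68 and 3.5 FPKM with propranolol, 3.58, 3.9 and 14.8 FPKM with lidocaine and 4.33, 4.07 and 5.38 FPKM with ivabradine, against 28.1, 8.21 and 8.07 FPKM in the controls. Control 1 was the highest library, lidocaine 3 and amiodarone 3 came next, and control 2 and 3 were close to 8 FPKM. Irgm1 stood at 7.97, 9.33 and 6.56 FPKM with isoproterenol, 9.41, 9.77 and 12.97 FPKM with amiodarone and 7.11, 8.37 and 7.49 FPKM with metoprolol. Levels of Irgm1 were 6.69, 8.77 and 7.13 FPKM with propranolol, 6.54, 7.08 and 13.6 FPKM with lidocaine and 7.41, 7.22 and 7.13 FPKM with ivabradine, against 22.3, 11.1 and 12 FPKM in the controls. Irgm1, the regulator of the immunity-related GTPases, showed the same 3 libraries on top. Its log2 change was -0.90 with ivabradine (SE 0.23, adjusted p = 0.00754) and -0.41 with amiodarone (adjusted p = 0.176). Igtp fell with isoproterenol, metoprolol, propranolol and ivabradine by 1.20 to 1.28 (SE 0.42, adjusted p 0.0299 to 0.0374). Without control 1 the log2 change of Igtp with isoproterenol was -0.68 (adjusted p = 0.18), and none of the 6 comparisons passed.

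Iigp1, which loads onto parasite vacuoles, was highest among drug libraries in amiodarone 3 at 9.98 FPKM and lidocaine 3 at 9.16 FPKM, and ran from 1.81 to 4.85 FPKM in the other 16. Control 1 had 26.1 FPKM of Iigp1, control 2 had 5.48 FPKM and control 3 had 4.08 FPKM. Tgtp2 reached 5.36 FPKM in amiodarone 3, 4.51 FPKM in lidocaine 3 and 16.9 FPKM in control 1, with control 2 at 3.6 FPKM and control 3 at 3.63 FPKM. Tgtp2 fell with the 5 drugs other than amiodarone by 1.39 to 2.12 (SE 0.48, adjusted p 0.00304 to 0.0305). Its longest coding transcript matches that of Tgtp1 at 99.8% of aligned bases, so the split between them is uncertain. Gbp2, Gbp3 and Gbp7, guanylate-binding proteins, fell with each of the 5 drugs other than amiodarone, and Gbp2 with amiodarone too (log2 -0.55, SE 0.20, adjusted p = 0.0435).

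Leaving out control 1 ended most calls of the GTPases. Gbp2 then fell with isoproterenol (log2 -0.50, adjusted p = 0.0467) and propranolol (-0.56, adjusted p = 0.0338) only, and its change with amiodarone was -0.31 (adjusted p = 0.22). Gbp3 was called with propranolol (-0.58), lidocaine (-0.49) and ivabradine, and Gbp7 with propranolol (-0.62) and ivabradine (-0.49). Irgm1 was called with ivabradine alone (-0.60, adjusted p = 0.0385). Tgtp2 was called with isoproterenol, metoprolol, propranolol and ivabradine by 1.33 to 1.47, and its change with lidocaine was -0.74 (adjusted p = 0.183). Tgtp1, Igtp and Iigp1 were called with no drug.

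Control 1 stood apart from control 2 and control 3 in these genes. On the log2(FPKM + 1) scale it exceeded the mean of the other 2 controls by a median of 1.28 in the 8 GTPases (0.71 to 2.24) and 0.31 in the 29 type I members (-0.07 to 0.91), and by 0.003 over all genes tested. It was the highest of 21 libraries for 8 of 8 GTPases and 23 of 29 type I members. Lidocaine 3 exceeded lidocaine 1 and 2 by a median of 0.77 in GTPases and 0.45 in type I members, and amiodarone 3 exceeded its partners by 0.67 and 0.16.

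**Figure D4:**
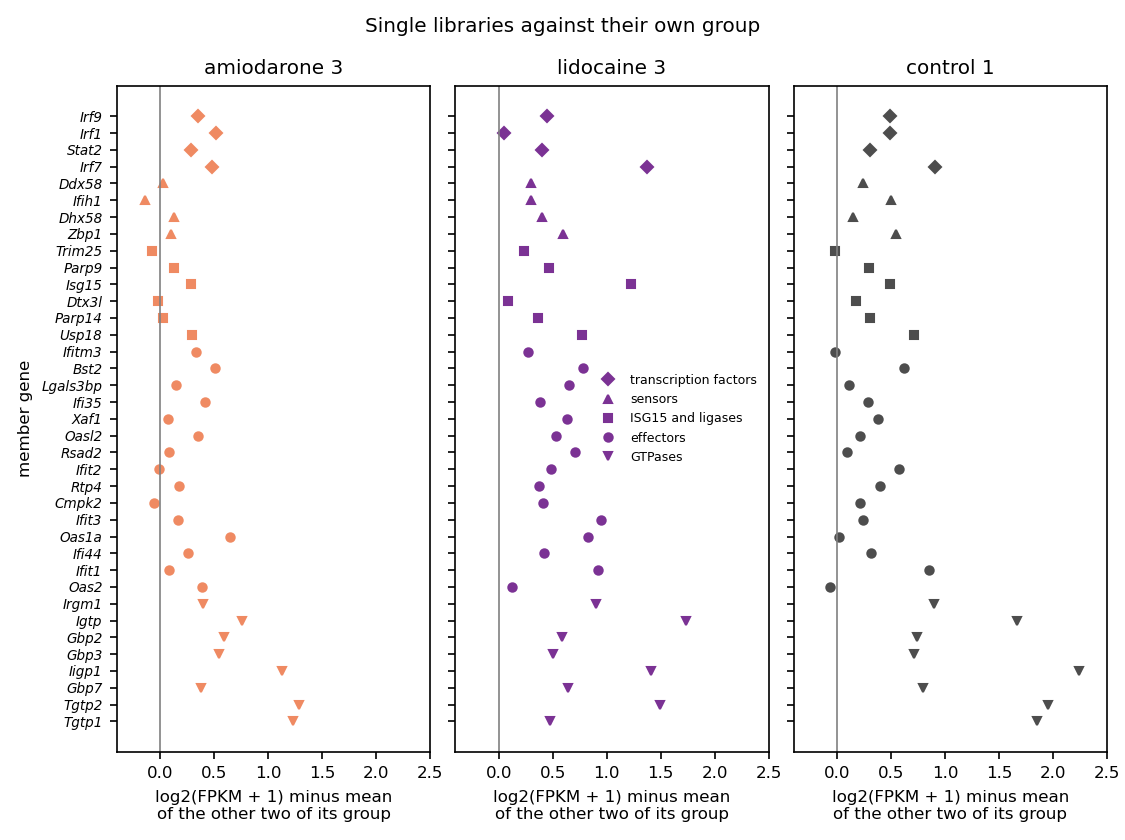
For 37 members (rows), log2(FPKM + 1) of 1 library minus the mean of the other 2 libraries of its group, for amiodarone 3, lidocaine 3 and control 1. Lidocaine 3 is above 0 in 37 of 37 members, and in control 1 the GTPases lie between 0.71 and 2.24 and the type I members between -0.07 and 0.91.

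Without control 1, 17 members were lower with isoproterenol, 2 with amiodarone, 12 with metoprolol, 23 with propranolol, 14 with lidocaine and 20 with ivabradine, and each of these was also called with control 1 in the fit. Of all genes 24.2%, 19.4%, 20.8%, 19.4%, 25.4% and 18.5% were then lower, in the same order of drugs. Of the 36 members called in at least 1 of the 6 comparisons, 10 were called in none without control 1, namely Ifih1, Irf7, Isg15, Usp18, Parp9, Ifit1, Ifit2, Igtp, Iigp1 and Tgtp1. The GTPases called were then 2 with isoproterenol, 0 with amiodarone, 1 with metoprolol, 4 with propranolol, 1 with lidocaine and 4 with ivabradine. Irf1 and Ifitm3 still fell in all 6 comparisons without control 1, with adjusted p of at most 0.0135 for Irf1 and 0.0235 for Ifitm3. Median log2 changes of the 37 members without it were -0.46, -0.04, -0.43, -0.56, -0.41 and -0.52 in the order of drugs above. With lidocaine 33 members were lower without lidocaine 3 (23.1% of all genes), 17 without lidocaine 1 (22.8%) and 14 without lidocaine 2 (18%). With metoprolol 14 members were lower without metoprolol 1 (13.1% of all genes). With amiodarone 8 were lower without amiodarone 3 (17.6% of all genes), and 1 was without amiodarone 1 (13.3%), amiodarone 2 (11.2%) or control 2 (11.7%). Without the 4 libraries with the highest transcripts of other tissues, 18 members were lower with isoproterenol (11.2% of all genes) and 19 with propranolol (8.16%).

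**Figure D5:**
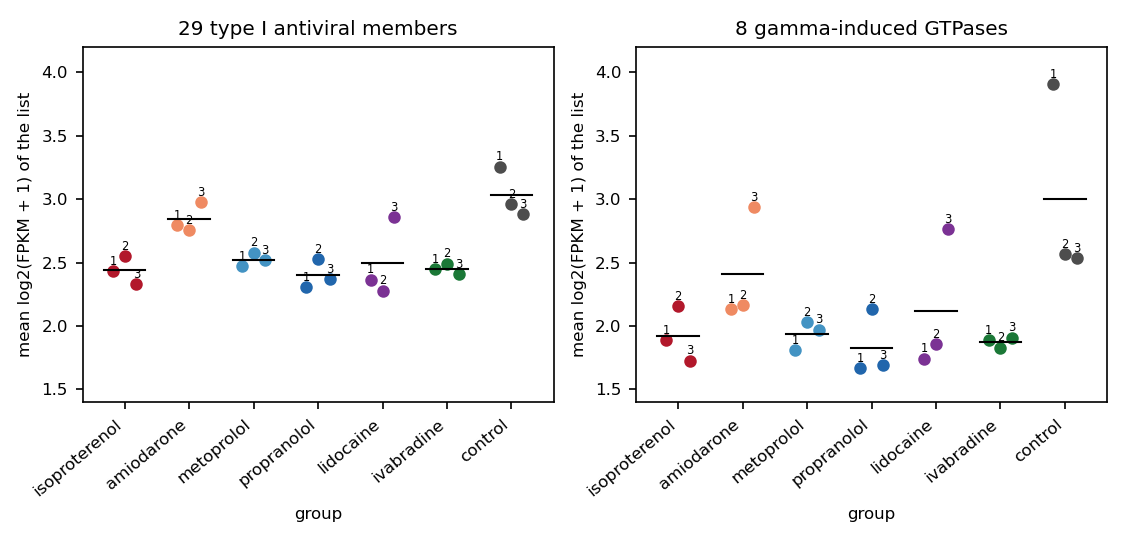
Mean log2(FPKM + 1) of the 29 type I members (left) and of the 8 GTPases (right) in each library, labelled by its number, with the group mean as a line; drugs stand left of control. In the GTPases amiodarone 3 is at 2.94 and lidocaine 3 at 2.76, while control 1 is at 3.91 and the other controls at 2.57 and 2.53.

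Members were higher with amiodarone than with the other drugs, and few of these differences passed the test. Across the 6 drug groups, without the controls, 7 members differed (limma F test, 12.5% of all genes), Rtp4, Ifit3, Lgals3bp, Stat2, Oas2, Irf9 and Cmpk2, with adjusted p from 0.0123 to 0.0489. In isoproterenol against amiodarone 6 members were lower, where 5.39% of all genes were, and none was higher. Over all genes the share of calls that were higher in isoproterenol was 35.3% as deposited and 46.2% rescaled. These members were Rtp4 (log2 -0.66, SE 0.14, adjusted p = 0.00773), Lgals3bp (-0.62), Oasl2 (-0.66), Oas2 (-0.53), Dhx58 (-0.45) and Ifi44 (-0.41). In a comparison chosen after the values were seen, amiodarone against the mean of the other 5 drugs, the change was above 0 for 37 of 37 members with a median of 0.38, against 0.008 over all genes. One of them, Rtp4, passed (log2 0.62, SE 0.11, adjusted p = 0.0274), where 0.0804% of all genes were called higher. The amiodarone libraries were above the other 15 drug libraries for 6 members, where 0.33% of all genes were. Leaving out single libraries of the groups compared gave 0 to 12 members in the F test of the drugs (0 without amiodarone 3, 12 without lidocaine 3). In isoproterenol against amiodarone it gave 1 to 5 (1 without isoproterenol 3). In amiodarone against the rest it gave 0 to 10 (10 without lidocaine 3, 0 without isoproterenol 3, metoprolol 1 or any amiodarone library). Without the 4 libraries with the highest transcripts of other tissues, no member passed in the F test of the drugs. None passed in isoproterenol against amiodarone or in amiodarone against the rest. Against control, the share of all genes called lower also fell without them, from 25.8% to 11.2% with isoproterenol and from 20.6% to 6% with amiodarone. Shares of all genes are not given for these leave-out counts, so a loss of members cannot be told apart from a general loss of calls.

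In the 5 other pairs of drugs compared, isoproterenol against 4 drugs and metoprolol against propranolol, no member was called, and the remaining pairs were not compared. Isoproterenol against metoprolol, propranolol, lidocaine and ivabradine gave 0 called members each in limma, with 0, 2, 2 and 1 members at an unadjusted p under 0.05, where 5.17%, 8.15%, 8.96% and 9.96% of all genes were called lower and 2.9%, 6.5%, 7.38% and 7.24% higher. Against metoprolol the share of all calls that were higher in isoproterenol was 35.9% as deposited and 46.3% rescaled. Metoprolol, which prefers the beta-1 receptor, and propranolol, which blocks both main beta receptors, gave 0 called members and 1 at an unadjusted p under 0.05. That comparison called 0.0483% of all genes, and the member differences lay between -0.17 and 0.42. Compared with the other 5 drugs, isoproterenol, metoprolol, propranolol, lidocaine and ivabradine each gave 0 called members, with 4, 0, 6, 0 and 0 at an unadjusted p under 0.05.

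Upstream, interferon transcripts were at the edge of detection. Of 21 interferon genes listed, 6 were in the table and none met the filter. Ifng was listed at 0 in 20 libraries and stood at 0.14 FPKM in control 1, and Ifnz reached at most 0.60 FPKM. The receptors were expressed in every library, at 12.2 to 15.9 FPKM for Ifnar1, 24.6 to 34.4 FPKM for Ifnar2, 22.2 to 32.6 FPKM for Ifngr1 and 108 to 141 FPKM for Ifngr2. Ifnar2 was lower with every drug but ivabradine (log2 -0.28 to -0.22, adjusted p 0.006 to 0.0285), and after rescaling with lidocaine only. Ifnar1 was lower with propranolol, lidocaine and ivabradine (log2 -0.22 to -0.20, adjusted p 0.0214 to 0.049), and with no drug after rescaling. Ifngr1 was lower with each drug by 0.25 to 0.33 (SE 0.07, adjusted p 0.00148 to 0.012). After rescaling Ifngr1 was lower with amiodarone, propranolol and lidocaine only. Ifngr2, the signalling chain of the gamma receptor, was higher with isoproterenol, amiodarone, metoprolol and propranolol by 0.18 to 0.27 (SE 0.04), and with all 6 drugs after rescaling.

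Socs1, the feedback inhibitor of Janus kinases, fell with all 6 drugs by 0.65 to 0.87 (SE 0.12, adjusted p 7.891e-05 to 0.00147). It stood between 1.48 and 2.56 FPKM in the 18 drug libraries, against 3.67 to 4.26 FPKM in controls, without overlap, and control 2 was the highest library. Of the 14 sensing relay genes tested, 9 fell with isoproterenol, 5 with amiodarone, 8 with metoprolol, 8 with propranolol, 9 with lidocaine and 7 with ivabradine, where 25.8%, 20.6%, 22%, 19.8%, 26.6% and 19.1% of all genes fell in that order. Among them Tmem173, or STING, fell with all 6 drugs by 0.40 to 0.59 (SE 0.09), and Mavs, the mitochondrial adaptor of RIG-I, rose with isoproterenol by 0.30 (SE 0.08).

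Other targets from the same pathways were lower or not called. Of 28 further type I genes tested, 17 fell with isoproterenol, 7 with amiodarone, 16 with metoprolol, 20 with propranolol, 15 with lidocaine and 14 with ivabradine, and 0 rose. The shares of all genes that fell were again 25.8%, 20.6%, 22%, 19.8%, 26.6% and 19.1%, and the 7 of 28 with amiodarone were near theirs. The ubiquitin ligase Trim21 fell with all 6 drugs, by 0.33 with amiodarone to 0.85 with ivabradine (SE 0.10), and without control 1 the change of Trim21 with amiodarone was -0.23 (adjusted p = 0.112). Of 11 further gamma-induced genes 6, 1, 5, 7, 5 and 7 fell in the same order of drugs, and 0 rose, so that the count with amiodarone was below the 20.6% of all genes. Without control 1 these counts were 3, 0, 3, 3, 2 and 3, of which those with amiodarone and lidocaine were below the shares of all genes then lower, 19.4% and 25.4%. Gbp5, a guanylate-binding protein of the inflammasome, had 4.46, 2.85 and 2.52 FPKM in control 1, control 2 and control 3, and it fell with the 5 drugs other than amiodarone by 0.41 to 0.82 (SE 0.15). Without control 1 Gbp5 was called with metoprolol, propranolol, lidocaine and ivabradine by 0.42 to 0.63, and its change with isoproterenol was -0.22 (adjusted p = 0.22).

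Macrophage markers were lower beside the members, and other cell markers are given by their sums. Of 12 macrophage markers tested, 10 fell with isoproterenol, 4 with amiodarone, 8 with metoprolol, 9 with propranolol, 9 with lidocaine and 8 with ivabradine. Of all genes 25.8%, 20.6%, 22%, 19.8%, 26.6% and 19.1% fell, in that order. Marker counts after rescaling are not given here. The sum of the 13 macrophage markers in the table ran from 119 to 482 FPKM in drug libraries, against 306, 661 and 704 FPKM in control 1, control 2 and control 3, and no marker was at 0. Control 1 held the highest GTPases and the lowest macrophage sum of the controls. Lyz2 was the largest part of that sum, at 91.8, 276 and 405 FPKM in control 1, control 2 and control 3. The other markers were also lowest in control 1 of the controls, by little for Cx3cr1, except Aif1, which was highest there at 5.18 FPKM. In lidocaine 3 and amiodarone 3 the macrophage sum was 281 and 337 FPKM, within the drug range. Collagen was also low in control 1, with Col1a1 at 374 FPKM there, 937 FPKM in control 2 and 833 FPKM in control 3. The 5 fibroblast markers summed to 916, 1900 and 1737 FPKM in control 1, control 2 and control 3. Their sum was 888 to 1443 FPKM in drug libraries, a range that held control 1. Of these markers Tcf21 alone was highest in control 1, at 34.2 FPKM, and the others were lowest there among the controls. The 10 T and NK cell markers in the table did not meet the filter, and their sum was 1.24 to 3.34 FPKM in drug libraries, highest in lidocaine 3, against 8.24, 3.74 and 2.47 FPKM in control 1, control 2 and control 3. Gzma of cytotoxic cells stood at 2.08 FPKM in control 1 and 0 to 0.54 FPKM elsewhere, and Ncr1 was at 0 in 11 libraries. The 4 monocyte markers summed to 1.84 to 6.09 FPKM in drug libraries and 10.5, 12.0 and 4.53 FPKM in the 3 controls. Neutrophil markers summed to 71.1 to 80.1 FPKM with amiodarone and 7.14 to 31.6 FPKM with the other drugs. Their sum was 22.3, 146 and 29.2 FPKM in control 1, control 2 and control 3, and Ly6g was at 0 in 8 libraries. The 5 B cell markers, of which 2 were tested and 0 called, summed to 1.72 to 6.03 FPKM (median 3.34) in drug libraries and 2.45 to 3.25 FPKM (median 2.66) in controls. Of 5 endothelial markers 4 fell with ivabradine and 2 with each other drug, to be read against the same shares of all genes. The endothelial sum was 359 to 471 FPKM in drug libraries and 431 to 495 FPKM in controls. Plasmacytoid dendritic cell markers other than the muscle gene Cox6a2 summed to at most 0.25 FPKM in any library. The part of these cells in the values of control 1, lidocaine 3 and amiodarone 3 was not tested.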

How the data were processed

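RNA of 21 heart apex libraries was sequenced on a BGISEQ-500, per the labels' protocols. The authors deposited 1 table of FPKM, and the tools listed in the submitters' processing notes are Bowtie2 2.2.5 and HISAT, with mm9 as the genome build. The counter, its annotation and its use of strand are not given in the sources used here. Members and lists were chosen with earlier results of these data known. FPKM was analysed as log2(FPKM + 1) with limma 3.58.1 in R 4.3.3, on genes that reached 1 FPKM in 3 or more libraries. One mean was fitted per group with a mean-variance trend, p-values were two-sided, and Benjamini-Hochberg adjustment ran over all genes tested in each comparison. A gene was called at an adjusted p under 0.05. Differences are on the log2(FPKM + 1) scale, which understates the change of low genes. The fit was checked on simulated data. Each drug against the other 5, and the separate count of GTPases, were chosen after the data were seen. Values in every library are given for the 8 members of smallest p across the 7 groups, the 2 most abundant members of each role and the 4 transcription factors. Other members are given by range. Promoters were read from RefSeq on GRCm38.p6, a build other than that of the files, and matched by gene ID. Without counts the depth is unknown, so no counting interval was given.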

Additional observations from a re-analysis of the deposited data

How the results depend on the processing

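Counts of members called changed by over 1.5 times in these settings. With a filter at 5 FPKM they were 19 (isoproterenol) and 3 (isoproterenol against amiodarone). GTPase counts were then 4 (isoproterenol), 3 (lidocaine) and 5 (ivabradine). That filter left fewer members to test, without Parp14, Gbp7, Tgtp1 and Tgtp2 among others, so its counts have a smaller base. With only the groups compared in the fit they were 14 (lidocaine), 2 (isoproterenol against the other drugs) and 2 (amiodarone against the other drugs), and GTPase counts were 4 (isoproterenol), 0 (amiodarone), 4 (metoprolol), 1 (lidocaine) and 5 (ivabradine). Without the 4 libraries highest in transcripts of other tissues they were 18 (isoproterenol), 19 (propranolol), 16 (F test of 7 groups) and 0 in the F test of 6 drugs, in isoproterenol against amiodarone and in amiodarone against the other drugs, and GTPase counts were 4 (isoproterenol), 0 (amiodarone) and 4 (propranolol). Without a filter the F test of 6 drugs gave 2, amiodarone against the other drugs 0 and amiodarone GTPases 0, which were also 0 under rescaling and robust moderation. A covariate of Y-linked genes gave 2 in isoproterenol against amiodarone and 3 in the F test of 6 drugs. Without the 4 libraries the shares of all genes called lower were smaller too, 11.2% with isoproterenol and 8.16% with propranolol. Shares of all genes are not given here for the other settings. Beyond the smaller base under the 5 FPKM filter, the cause of these shifts was not tested.

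Leaving out 1 library at a time, taken only from the groups compared, gave 17 to 32 members with isoproterenol and 1 to 8 with amiodarone. That gave 12 to 29 with metoprolol, 23 to 32 with propranolol, 14 to 33 with lidocaine and 20 to 30 with ivabradine. It gave 1 to 5 in isoproterenol against amiodarone, 0 to 1 against lidocaine, 0 to 1 against ivabradine, 0 to 2 in isoproterenol against the other drugs, 0 to 10 in amiodarone against the other drugs, 19 to 32 in the F test of 7 groups and 0 to 12 in that of 6 drugs. GTPase counts were 2 to 8 with isoproterenol, 0 to 3 with amiodarone and 1 to 8 with metoprolol. They were 4 to 8 with propranolol, 1 to 7 with lidocaine and 4 to 8 with ivabradine. Libraries outside a comparison stayed in those fits. Without lidocaine 3 the members lower were 35 with isoproterenol, 5 with amiodarone, 31 with metoprolol, 34 with propranolol and 32 with ivabradine. Of all genes 25.4%, 20.1%, 21.6%, 19.4% and 18.7% were then lower, in that order. The share of all genes called also changed with the library left out. With metoprolol it was 22% lower as deposited and 13.1% without metoprolol 1, so these ranges have no common background.

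Libraries share a title number across groups, but deviations of same-numbered libraries correlated at -0.54 to 0.29, and 4 of 21 libraries correlated best with their own number, so they were not treated as pairs. With the number as a replicate block 31, 2, 24, 29, 26 and 30 members were called with isoproterenol, amiodarone, metoprolol, propranolol, lidocaine and ivabradine, with 0 GTPases for amiodarone. Of all genes 25%, 19.4%, 20.9%, 18.7%, 25.4% and 18.4% were then lower, in the same order of drugs. The block gave 1 member in the F test of 6 drugs and 0 in amiodarone against the other drugs.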
